A study of Homo sapiens with 6 samples.

Results

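Expression of the SR protein and heterogeneous nuclear ribonucleoprotein (hnRNP) genes was examined in NCI-H1703 cells in which the phosphatase gene PPM1G was knocked down. The 37 members were taken by name: 12 SRSF genes and 2 TRA2 genes, called SR proteins here, and 23 HNRNP genes, out of 17534 genes in the deposited tables. All 37 matched a protein-coding gene of RefSeq by Entrez ID. NCI-H1703 is an established line that the labels give as lung squamous cell carcinoma. There were 3 control libraries, whose genotype label is Sh-NC while the series text calls the control cells wild-type, and 3 libraries of cells with a short hairpin RNA (shRNA) against PPM1G, labelled Sh-PPM1G. Cells were grown in flasks to near confluence and detached with trypsin before RNA was extracted, and no drug or other agent was named for either group. The sources used here give neither the number of hairpins nor whether the knockdown cells were 1 clone or a pool. Whether each library stands for its own culture is not stated in the labels, so a p-value here reflects how these particular libraries vary, which may be technical.

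SR proteins carry RNA recognition motifs and a domain rich in arginine and serine (RS domain). They bind exonic enhancers, recruit U1 snRNP and U2AF to nearby splice sites, and shuttle between speckles and nascent transcripts as kinases and phosphatases add and remove phosphate on the RS domain. The hnRNPs coat nascent transcripts, and many of them oppose SR proteins by binding silencers, while others act in export, stability and translation. Many genes of both families are known to limit their own transcripts through exons that trigger nonsense-mediated decay. PPM1G is a nuclear PP2C-family phosphatase known to bind spliceosome components.

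The libraries held 31337553 to 35838246 counts, and the 37 members took between 0.815% and 0.907% of them. PPM1G itself had 333, 308 and 324 CPM (counts scaled to library size with TMM factors) in control libraries 1 to 3 and 182, 194 and 188 in shRNA libraries 1 to 3. This was a fall of 0.77 ± 0.03 (SE) on the log2 scale, with an adjusted p of 3.3e-20 by edgeR's quasi-likelihood test with Benjamini-Hochberg adjustment over 13060 genes, and all 3 shRNA libraries were below all 3 control libraries. Of 6 squamous lung markers in the table, SOX2 alone reached 1 FPKM (the authors' unit per length and per library total) in any library, and the summed squamous level was 8.54 to 9.71 FPKM in control and 4.29 to 4.80 FPKM in shRNA libraries. TP63, which defines squamous tumours, was at most 0.240 FPKM. Epithelial markers (KRT8, KRT18 and EPCAM, with CDH1 near 0) summed to 171 to 182 FPKM in control and 175 to 187 FPKM in shRNA libraries, and lung adenocarcinoma markers to 44.7 to 50.2 and 65.0 to 70.7 FPKM. Of the latter, NKX2-1 was at 43.2 to 49.0 and 50.4 to 55.6 FPKM, NAPSA at no more than 1.53 and at 14.6 to 15.1 FPKM, and SFTPC at 0. Of 5 immune markers, PTPRC and MS4A1 were at or near 0, and CD68, also a lysosomal gene, made up nearly all of a sum of 704 to 736 FPKM in control and 335 to 353 FPKM in shRNA libraries. The fibroblast markers, mainly COL1A1, summed to 25.1 to 27.5 FPKM in control and 61.4 to 62.7 FPKM in shRNA libraries, and the part of any marker in the results below was not tested. Levels are relative within a library, and less RNA per cell cannot be told apart from fewer cells that express a gene.

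Most called hnRNPs fell, and most called SR proteins rose. Among 20 hnRNP genes that passed the filter on low counts, 11 fell, 5 rose and 4 did not pass the test, and among 13 SR protein genes 7 rose, 4 fell and 2 did not pass. Large changes were nearly all falls of hnRNPs: 8 hnRNPs fell and none rose by at least 1.5-fold, whereas SRSF8 was the 1 SR protein past that size, as a rise. The median log2 fold change (shRNA over control, here and throughout) was −0.32 for the hnRNPs, 0.23 for the SR proteins and 0.01 over all genes tested. With no filter, where the 3 hnRNPs near 0 counts enter, the hnRNP median was −0.06 and the counts of rises and falls were still 5 and 11. Without the 2 TRA2 genes, the 11 SRSF genes tested had 6 rises, 3 falls and a median of 0.23. Changes were common in this comparison, so these counts need the background. Of the 13060 genes tested, 82.9% passed an adjusted p of 0.05, 41.5% as rises and 41.3% as falls. The share called was thus near the background in both families (80.0% of hnRNPs and 84.6% of SR proteins), whereas 55.0% of hnRNPs fell and 53.8% of SR proteins rose. At 1.5-fold or more, 45.5% of all genes were called, 22.8% rising and 22.7% falling, beside 40.0% of the hnRNPs, all falling, and 7.69% of the SR proteins. The control and shRNA libraries did not overlap for 11 of 13 SR proteins and 16 of 20 hnRNPs, against 83.7% of all genes tested. With scaling by library totals alone, the hnRNPs split into 8 rises and 11 falls, and rises were 42.1% of the hnRNP calls against 31.2% with TMM factors, while the median of all genes shifted by 0.10. TRA2A and HNRNPH3 lay just under 1.5-fold, and without control library 1 both passed it, which made 2 SR proteins and 1 hnRNP; without shRNA library 1 or shRNA library 3, HNRNPH3 again passed it as the 1 hnRNP.

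**Figure D1:**
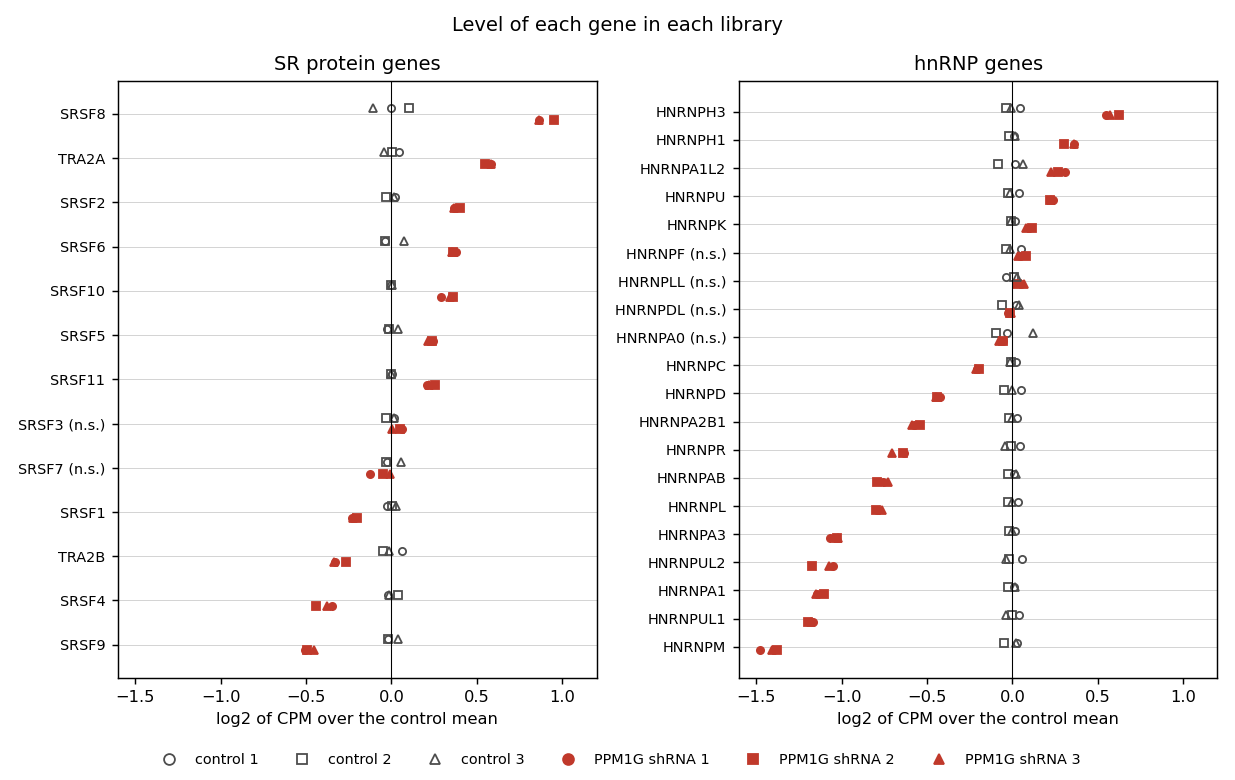
Level of each tested SR protein gene (left) and hnRNP gene (right) in each library, as the log2 of its TMM-scaled CPM over the mean of the 3 control libraries; open grey symbols are control and filled red symbols PPM1G shRNA libraries, and n.s. marks an adjusted p above 0.05. The SR proteins spread from SRSF9 at −0.48 to SRSF8 at 0.89, and the hnRNPs reach from HNRNPM at −1.42 to HNRNPH3 at 0.58.

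The SR protein with the largest change was SRSF8 (chromosome 11, positions 95066877 to 95071225 on GRCh38), an SRSF2-like member. Its level was 29.1, 31.3 and 27.0 CPM in control libraries and 53.0, 56.3 and 52.9 CPM in shRNA libraries, so that every shRNA library lay above every control library. The rise was 0.89 ± 0.05 (log2, ± SE), or 1.86-fold, with an adjusted p of 4.2e-16. Whether the authors' counting split reads between SRSF8 and SRSF2 is not given in the sources used here. SRSF2 (chromosome 17, positions 76734115 to 76737411), the classical speckle protein known as SC35, had 229, 221 and 228 CPM in control and 291, 298 and 291 CPM in shRNA libraries and rose by 0.38 ± 0.03 (adjusted p = 2.5e-13). TRA2A (chromosome 7, positions 23504780 to 23531981), a sequence-specific activator that binds GA-rich enhancers and is related to SR proteins, had 79.1, 76.9 and 74.4 CPM in control and 115, 112 and 115 CPM in shRNA libraries. Its rise was 0.57 ± 0.04, or 1.49-fold (adjusted p = 5.8e-15), again without overlap. Its close relative TRA2B (chromosome 3, positions 185914558 to 185938014) moved the other way, from 162, 149 and 153 CPM in control to 123, 129 and 122 CPM in shRNA libraries, a log2 difference of −0.31 ± 0.04 (adjusted p = 2.4e-09).

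SRSF6, SRSF5 and SRSF4 form a subgroup with a pair of RNA recognition motifs and a long RS domain, and they did not move together. SRSF6 (chromosome 20, positions 43457896 to 43464243) had 126, 125 and 136 CPM in control and 168, 166 and 165 CPM in shRNA libraries, a rise of 0.36 ± 0.04 (adjusted p = 3.8e-11). SRSF5 also rose, from 232, 234 and 243 CPM to 279.6, 279 and 274 CPM, by 0.23 ± 0.03 (adjusted p = 2.0e-08). SRSF4 (chromosome 1, positions 29147743 to 29181900) fell, with 67.9, 70.7 and 68.2 CPM in control and 54.1, 50.8 and 53.1 CPM in shRNA libraries, by a log2 value of 0.39 ± 0.04 (adjusted p = 1.6e-09). None of these genes had overlapping groups. SRSF10 (chromosome 1, positions 23964347 to 23980327), which represses splicing when it is dephosphorylated, as in heat shock and mitosis, had 122, 122 and 123 CPM in control and 150.0, 157 and 156 CPM in shRNA libraries. Its rise was 0.33 ± 0.03 (adjusted p = 1.4e-10), and SRSF11, a larger family member, rose from 281, 280.0 and 279 CPM to 324, 334 and 326 CPM, by 0.23 ± 0.03 (adjusted p = 1.0e-08).

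SRSF1 and SRSF9, which share their domain plan, both fell. SRSF9 (chromosome 12, positions 120461672 to 120469748) had 171, 171 and 178 CPM in control and 122, 123 and 126 CPM in shRNA libraries, the largest fall among the SR proteins tested, at −0.48 ± 0.03 (adjusted p = 1.1e-14). SRSF1, a founding SR protein that also acts in decay and translation, had 279.7, 286 and 291 CPM in control and 243, 248 and 244 CPM in shRNA libraries, a log2 difference of −0.22 ± 0.03 (adjusted p = 3.9e-08). SRSF3 and SRSF7, the adaptors that link splicing to the export receptor NXF1, did not pass the test. SRSF3 was at 131, 128 and 132 CPM in control and 136, 135 and 130.5 CPM in shRNA libraries (0.04 ± 0.03, adjusted p = 0.30). For SRSF7 the values were 117, 117 and 124 and 109.6, 115 and 119 CPM (−0.06 ± 0.04, adjusted p = 0.16). In both genes the groups overlapped, and with library totals alone SRSF3 rose (0.14) and SRSF7 had a value of 0.04. SRSF3 also passed as a rise with upper-quartile factors (0.08) and with fits on FPKM.

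Among the hnRNPs of the A and B type, which bind AG-rich silencers and, in HNRNPA1, compete with SRSF1, 5 of 8 fell, 1 rose and 2 did not pass the test. HNRNPA1 (chromosome 12, positions 54280726 to 54287087) had 800.4, 779 and 805 CPM in control and 359, 370.1 and 358 CPM in shRNA libraries. This was 0.456 of the control level, a log2 value of −1.13 ± 0.03 (adjusted p = 3.3e-27). HNRNPA3 (chromosome 2, positions 177212794 to 177223959) fell to a like degree, from 297, 289 and 293 CPM to 140.0, 144 and 144 CPM (−1.04 ± 0.03, adjusted p = 9.9e-25). HNRNPA2B1 (chromosome 7, positions 26189927 to 26200746), known for RNA trafficking and as a reader in m6A-dependent processing, had 1188, 1147 and 1162 CPM in control and 782, 799.7 and 776 CPM in shRNA libraries. It fell to 0.674 of control (−0.57 ± 0.03, adjusted p = 1.2e-19).

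HNRNPAB (chromosome 5, positions 178204533 to 178211163) had 204, 199 and 206 CPM in control and 119.9, 117 and 123 CPM in shRNA libraries and fell by a log2 value of 0.76 ± 0.03 (adjusted p = 4.4e-20). HNRNPD, also called AUF1, which binds AU-rich elements and promotes mRNA decay, went from 207, 193 and 199.6 CPM to 149, 147 and 146 CPM and fell by 0.44 ± 0.03 (adjusted p = 8.3e-14). In these 5 genes no shRNA library reached the lowest control library. HNRNPDL, an HNRNPD-like gene, was at 178, 168 and 180.1 CPM in control and 172, 174 and 175 CPM in shRNA libraries (−0.02 ± 0.03, adjusted p = 0.65), with overlapping groups. HNRNPA0 overlapped too, at 102, 97.5 and 113 CPM in control and 100.1, 100.3 and 98.7 CPM in shRNA libraries (−0.06 ± 0.04, adjusted p = 0.17). With library totals alone, HNRNPDL (0.08, past the test) and HNRNPA0 (0.04) had positive values. Without control library 2, HNRNPA0 passed the test as a fall (−0.11). The rise was that of HNRNPA1L2, an HNRNPA1-like copy, at 12, 11.2 and 12.4 CPM in control and 14.7, 14.3 and 13.9 CPM in shRNA libraries (0.27 ± 0.08, adjusted p = 0.0041). Its value is uncertain, since the authors' counting could have split reads between it and HNRNPA1.

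The largest fall of all members was that of HNRNPM (chromosome 19, positions 8444975 to 8489114), a repressor or activator of alternative exons. It had 241, 229 and 241 CPM in control and 85.0, 91.2 and 89.4 CPM in shRNA libraries, 0.374 of the control level (−1.42 ± 0.04, adjusted p = 7.9e-27). HNRNPL (chromosome 19, positions 38836370 to 38852347), which binds CA repeats, had 277, 266 and 270.5 CPM in control and 157, 156 and 159.9 CPM in shRNA libraries (−0.78 ± 0.03, adjusted p = 2.7e-21). Its paralog HNRNPLL, known for CD45 splicing in lymphocytes, did not pass the test at 45.0, 46.6 and 47.1 CPM in control and 47.9, 47.0 and 48.4 CPM in shRNA libraries (0.05 ± 0.05, adjusted p = 0.35), although it passed as a rise (0.15) with library totals alone. HNRNPR went from 162, 157 and 153 CPM to 101, 101 and 96.3 CPM and fell by 0.66 ± 0.04 (adjusted p = 2.4e-17). HNRNPC, the nuclear protein that binds uridine tracts and keeps U2AF off cryptic sites, showed the smallest fall past the test, with 849.7, 833 and 827 CPM in control and 725, 732 and 722 CPM in shRNA libraries (−0.20 ± 0.03, adjusted p = 1.1e-08).

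The U-type genes split. HNRNPUL1 (chromosome 19, positions 41262557 to 41307787) had 429, 417 and 407 CPM in control and 186, 182 and 184 CPM in shRNA libraries (−1.18 ± 0.03, adjusted p = 1.2e-26). HNRNPUL2 (chromosome 11, positions 62712630 to 62727457) had 269, 255 and 252 CPM in control and 125, 115 and 123 CPM in shRNA libraries (−1.10 ± 0.04, adjusted p = 2.0e-23). Both proteins are known to act in the response to DNA double-strand breaks. In contrast HNRNPU, also known as the scaffold attachment factor SAF-A, was higher in all 3 shRNA libraries (657, 650.2 and 653 CPM) than in the control libraries (573, 549 and 552 CPM), by 0.23 ± 0.03 (adjusted p = 2.5e-09).

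The other rises were among the H and F type, which bind G-runs, and HNRNPK. HNRNPH3 (chromosome 10, positions 68331693 to 68343196) had 306, 288 and 294 CPM in control and 432, 456 and 439 CPM in shRNA libraries, the largest rise of the hnRNPs (0.58 ± 0.03, adjusted p = 3.9e-18). HNRNPH1 had 354, 346 and 355 CPM in control and 451, 433 and 452 CPM in shRNA libraries and rose by 0.34 ± 0.03 (adjusted p = 8.9e-13). HNRNPF, at 251, 236 and 241 CPM in control and 250.2, 256 and 248 CPM in shRNA libraries, did not pass the test (0.05 ± 0.03, adjusted p = 0.12). It passed as a rise with library totals alone (0.15), with upper-quartile factors (0.09), with fits on FPKM (0.15) and without control library 1 (0.08). HNRNPK (chromosome 9, positions 83968083 to 83980615), a KH-domain protein that binds C-rich tracts, had 635, 623 and 625 CPM in control and 671, 679 and 664 CPM in shRNA libraries. The groups did not overlap, but the rise was small, at 0.10 ± 0.03 (adjusted p = 0.0010).

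Among the members, 4 did not pass the filter on low counts and had no test. SRSF12 and HNRNPCL1 had 1 count each in 1 shRNA library and 0 elsewhere, and HNRNPCL2 had 1 count in control library 1 and 1 in shRNA library 3. HNRNPH2 (chromosome X, positions 101408222 to 101414133), which encodes a close relative of HNRNPH1, had 0, 2 and 6 counts in control libraries and 7, 1 and 1 in shRNA libraries. It lies within the span of a read-through gene, RPL36A-HNRNPH2, so reads could have been split or dropped by the authors' counting, and its level cannot be read from this table. In all, 16 of the 37 members overlap another RefSeq gene, 9 of them a protein-coding one, among them SRSF2 (MFSD11), SRSF4 (MECR), SRSF9 (GATC), HNRNPAB (PHYKPL), HNRNPK (RMI1) and HNRNPH3 (PBLD and RUFY2). The sources used here do not give the strand setting of the counting, so reads of such partners may not be told apart. RefSeq lists 127 pseudogenes named after hnRNP members, 75 of them after HNRNPA1, against 15 named after SR members, and reads of such copies are a further uncertainty of the counts.

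Levels can be compared between genes on the FPKM scale, which divides by a gene's length. It is scaled by library totals without TMM factors, so changes in FPKM differ from the tested ones. HNRNPK, for example, was 1.07-fold and SRSF8 1.86-fold of control in the test. Control means ran from 6.53 FPKM for SRSF8 to 145 FPKM for SRSF9 among the SR proteins tested, and from 4.98 FPKM for HNRNPA1L2 to 307 FPKM for HNRNPA2B1 among the hnRNPs. SRSF9 went from 145 ± 3.22 to 111 ± 2.14 FPKM and SRSF2 from 116 ± 2.07 to 161 ± 2.41 FPKM, so that SRSF2 took over as the most abundant SR transcript in the shRNA libraries and SRSF9 was then the third, behind SRSF5 (94.5 ± 2.25 to 119 ± 1.19 FPKM). From control to shRNA libraries, SRSF9 went from 22.4% ± 0.241 to 15.3% ± 0.282 of the summed SR level, and SRSF2 from 17.8% ± 0.264 to 22.1% ± 0.200. Among the hnRNPs, HNRNPA2B1 went from 307 ± 5.00 to 222 ± 3.73 FPKM and HNRNPA1 from 205 ± 3.17 to 100.2 ± 1.93 FPKM. HNRNPA1 dropped from the second to the sixth place, and HNRNPK, at 199 ± 1.82 to 228 ± 2.73 FPKM, became the most abundant. The shRNA values of HNRNPK and HNRNPA2B1, at 227, 231 and 225 and 219.8, 226 and 219 FPKM, overlapped, so their order is not resolved. HNRNPH3 (from 5.51% ± 0.0734 to 10.4% ± 0.233 of the hnRNP sum) and HNRNPH1 (5.04% ± 0.0593 to 8.05% ± 0.229) gained share, while HNRNPA1 (11% ± 0.136 to 6.35% ± 0.0791) and HNRNPM (4.08% ± 0.0654 to 1.92% ± 0.0623) lost it. Spearman's rho between a gene's log2 fold change and its control FPKM was −0.28 over 13 SR proteins and −0.09 over 20 hnRNPs, given as a description of genes measured in the same libraries.

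**Figure D2:**
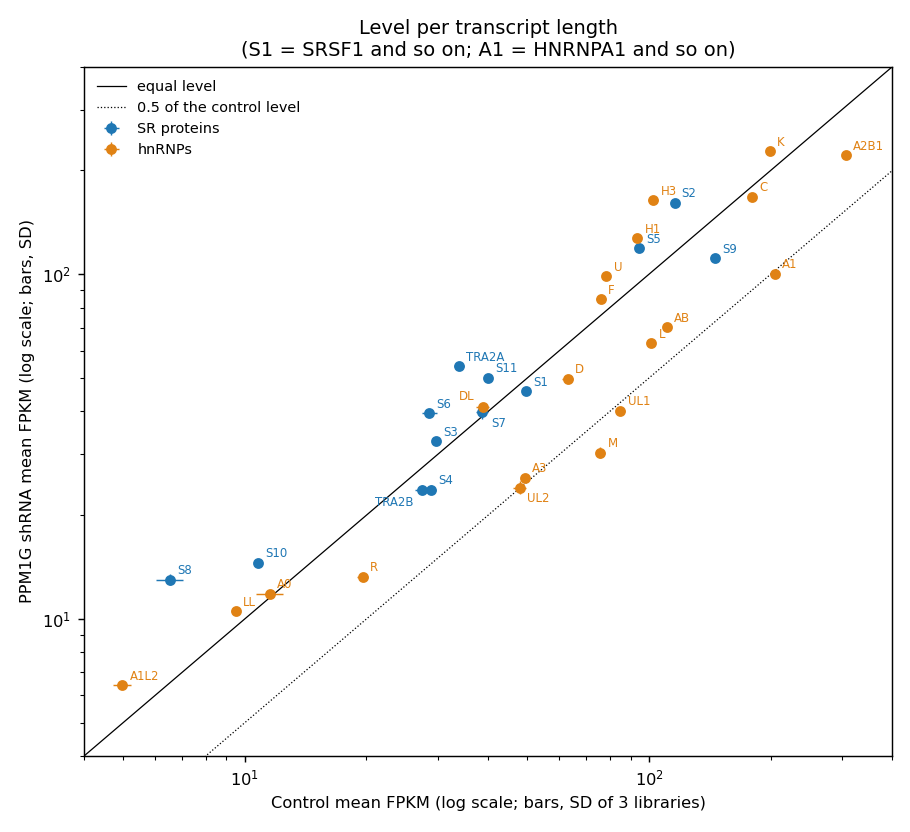
Mean FPKM of each tested member in PPM1G shRNA against control libraries, both axes on a log scale, with SD bars over 3 libraries, SR proteins in blue and hnRNPs in orange. HNRNPM and HNRNPUL1 lie below the dotted line at 0.5 of the control level, and HNRNPA1, HNRNPUL2 and HNRNPA3 lie on or near it. FPKM holds no TMM factor, and in the test with TMM factors HNRNPA1, HNRNPUL2 and HNRNPA3 were at 0.456, 0.468 and 0.487 of control. SRSF8 (6.53 to 13.0 FPKM) lies farthest above the line of equal level.

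Summed over its members, the SR protein level was 647, 644 and 659 FPKM in control libraries and 723, 733 and 728 FPKM in shRNA libraries, so all shRNA libraries were higher. The summed hnRNP level was 1889, 1831 and 1854 FPKM in control and 1569, 1590.0 and 1574 FPKM in shRNA libraries, all of them lower. The means changed 1.12-fold for SR proteins (649.7 ± 7.93 to 728 ± 5.24 FPKM, SD, n = 3) and 0.849-fold for hnRNPs (1858 ± 29.4 to 1578 ± 11 FPKM). The ratio of the SR to the hnRNP sum, which no library scaling can alter, was 0.342, 0.352 and 0.355 in control and 0.461, 0.461 and 0.463 in shRNA libraries. It rose 1.32-fold, and the groups did not overlap. These sums are weighted towards the abundant members, and no test was made on them. FPKM holds no TMM factor. As a percent of all counts, with neither gene length nor TMM factors, the means changed 1.15-fold for SR proteins and 0.848-fold for hnRNPs. Summed as TMM-scaled CPM, also without gene length, they changed 1.07-fold and 0.791-fold.

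**Figure D3:**
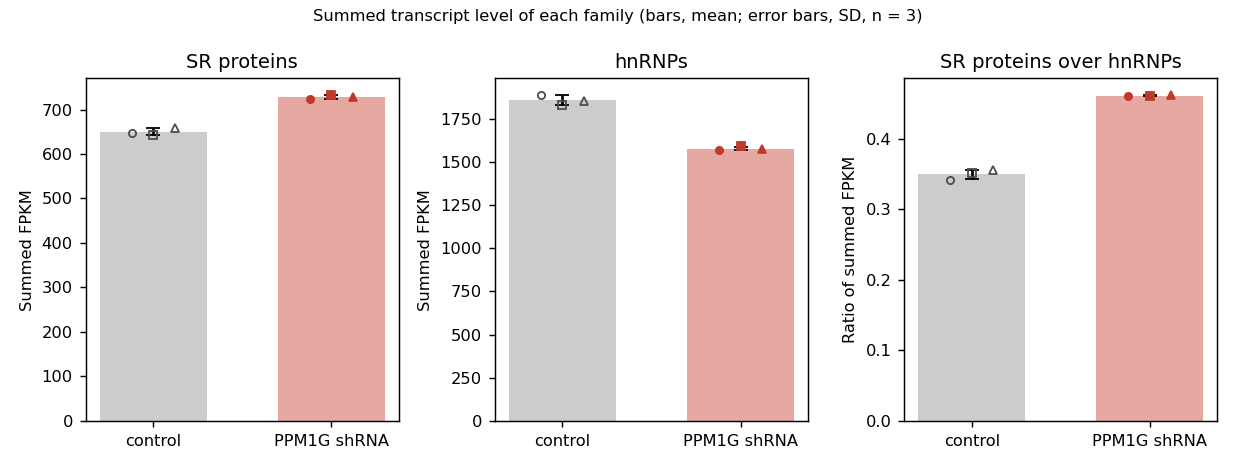
Summed FPKM of the SR protein genes, summed FPKM of the hnRNP genes, and the ratio of the SR to the hnRNP sum, in control and PPM1G shRNA libraries; bars are means, error bars SD over 3 libraries and points single libraries. The ratio sits at 0.342 to 0.355 in the control and 0.461 to 0.463 in the shRNA libraries.

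Related members were also compared within each library as a ratio of counts, which library size and scaling do not affect. Of 16 listed pairs, 14 could be compared, and in 13 the control and shRNA ratios did not overlap; among single genes, 83.7% of all tested did not, so most pairs of genes may separate in this comparison. An exact permutation test of 3 against 3 libraries cannot give a two-sided p below 0.10, and these 13 pairs had that value (0.11 after Benjamini-Hochberg adjustment over 14 pairs). The widest shift was in HNRNPU over HNRNPUL1, with ratios of 1.34, 1.32 and 1.35 in control and 3.53, 3.57 and 3.54 in shRNA libraries, a 2.66-fold change. TRA2A over TRA2B went from 0.490, 0.516 and 0.486 to 0.938, 0.872 and 0.941. As a ratio of FPKM, which divides by gene length, it was 1.22, 1.28 and 1.21 in control and 2.33, 2.17 and 2.34 in shRNA libraries. Per length, TRA2A was thus above TRA2B in every library. HNRNPL over HNRNPLL fell from 6.17, 5.72 and 5.74 to 3.27, 3.32 and 3.31. SRSF4 over SRSF6 fell from 0.539, 0.563 and 0.502 to 0.322, 0.306 and 0.322. These 4 pairs were those that shifted by at least 1.5-fold. Closest to no shift among the 13 was HNRNPUL1 over HNRNPUL2, at a log2 difference of −0.08, and SRSF3 over SRSF7 overlapped between groups (exact p = 0.20).

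**Figure D4:**
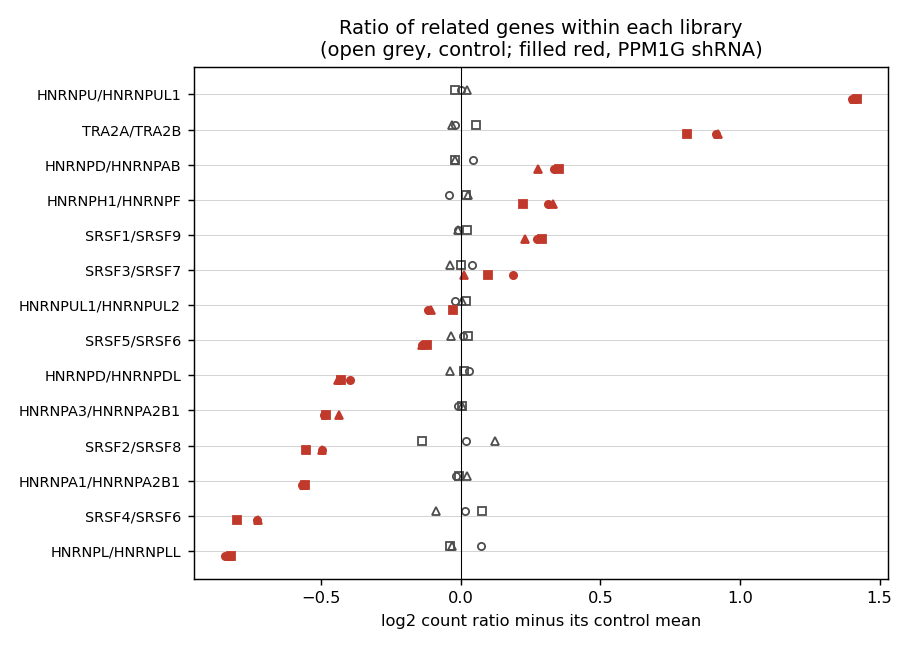
Ratio of the counts of related genes in each library, as the log2 ratio minus the mean of the control libraries; open grey symbols are control and filled red symbols PPM1G shRNA libraries. HNRNPU/HNRNPUL1 shifts by 1.41 and HNRNPL/HNRNPLL by −0.83, while the groups overlap for SRSF3/SRSF7.

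Promoter sequence was compared as a feature that the choice by name did not use. RefSeq (GRCh38.p14) gave windows of 250 bases before an annotated start for 34 of the 37 members, 33 windows for 22 hnRNP genes and 15 for 12 SR genes. The motifs were chosen after the expression values were known and were searched on both strands. The CAAT box CCAAT was in at least 1 window of 18 of the 22 hnRNP genes and 2 of the 12 SR genes (SRSF3 and SRSF8), and in 60.6% of hnRNP windows, 3 of 15 SR windows and 32.0% of all 34788 distinct windows. The E-box CACGTG, the core bound by MYC and USF factors, was in 21.2% of hnRNP windows (HNRNPA3, HNRNPD, HNRNPDL, HNRNPH2, HNRNPH3 and HNRNPM), in none of the SR windows and in 6.31% of all windows. The ETS core CCGGAAG was in 9.09% of hnRNP, 13.3% of SR and 8.50% of all windows. The CRE TGACGTCA (1.64% of all windows) and the YY1 core GCCATNTT (3.86%) were in no member's window. By direction, CCAAT was in 4 of 10 members that rose and 8 of 14 that fell and had a window. CACGTG was in 1 of these 10 (HNRNPH3) and in 3 of these 14 (HNRNPA3, HNRNPD and HNRNPM). Over all 27305 genes with a window, 37.0% had CCAAT in at least 1 window and 7.73% had CACGTG. Windows of a gene can overlap, and those of HNRNPCL1 and HNRNPCL2 belong to near-identical copies. A match is a description of these letters and not a bound site.

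The windows of HNRNPM (chr19:8444725-8444974 on the plus strand), with the largest fall, of HNRNPUL2 (chr11:62727458-62727707 on the minus strand) and HNRNPA2B1 (chr7:26200747-26200996 on the minus strand), of SRSF8 (the first of its 2 listed starts, chr11:95066627-95066876 on the plus strand), with the largest rise, and of SRSF1 (chr17:58007247-58007496 on the minus strand), which fell, are shown 5′ to 3′ to set these cases side by side. Capitals mark a CACGTG in HNRNPM and a CCAAT, or ATTGG on the other strand, in the next 3, and SRSF1 has no match. The first letter of each match lies, from the annotated start, at −42 for the E-box and −46, −101 and −33 for the CAAT boxes of HNRNPUL2, HNRNPA2B1 and SRSF8.
HNRNPM: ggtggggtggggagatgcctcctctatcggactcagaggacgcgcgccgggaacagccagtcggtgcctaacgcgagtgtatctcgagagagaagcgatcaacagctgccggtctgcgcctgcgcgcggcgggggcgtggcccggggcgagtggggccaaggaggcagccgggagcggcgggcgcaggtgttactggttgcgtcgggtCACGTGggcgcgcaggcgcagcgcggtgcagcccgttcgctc
HNRNPUL2: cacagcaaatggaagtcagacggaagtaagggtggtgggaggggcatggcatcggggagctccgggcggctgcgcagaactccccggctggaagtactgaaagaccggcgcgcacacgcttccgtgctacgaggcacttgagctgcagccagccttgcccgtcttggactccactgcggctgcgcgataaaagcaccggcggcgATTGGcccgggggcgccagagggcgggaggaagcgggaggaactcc
HNRNPA2B1: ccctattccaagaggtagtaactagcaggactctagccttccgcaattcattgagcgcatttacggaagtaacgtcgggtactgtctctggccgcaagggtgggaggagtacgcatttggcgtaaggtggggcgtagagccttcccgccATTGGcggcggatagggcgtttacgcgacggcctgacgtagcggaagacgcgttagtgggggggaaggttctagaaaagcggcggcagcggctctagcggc
SRSF8: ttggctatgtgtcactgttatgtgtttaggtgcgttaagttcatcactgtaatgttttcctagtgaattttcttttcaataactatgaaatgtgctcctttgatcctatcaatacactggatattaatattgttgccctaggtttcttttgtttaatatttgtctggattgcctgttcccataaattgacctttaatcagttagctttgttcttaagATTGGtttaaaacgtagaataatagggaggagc
SRSF1: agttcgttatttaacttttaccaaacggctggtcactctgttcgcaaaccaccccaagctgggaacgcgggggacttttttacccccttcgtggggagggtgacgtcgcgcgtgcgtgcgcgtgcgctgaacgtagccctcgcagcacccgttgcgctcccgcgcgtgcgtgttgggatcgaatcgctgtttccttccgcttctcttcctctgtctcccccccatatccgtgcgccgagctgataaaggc

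Genes that act on or with these families were followed as lists, described by counts alone, to be read beside the 41.5% rising and 41.3% falling of all genes tested. The SR protein kinases and phosphatases gave 5 rises, 6 falls and 4 genes that did not pass the test among 15 tested (median 0.02), shares near that background, and 8 rises and 5 falls with library totals alone. The rises included CLK1 (33.2 ± 1.29 to 181 ± 5.52 CPM, log2 2.45 ± 0.04, adjusted p = 3.6e-31), a nuclear kinase of RS domains, and the falls included SRPK1 (229 ± 2.53 to 100.1 ± 3.39 CPM, log2 −1.19 ± 0.03, adjusted p = 3.1e-25), which phosphorylates SR proteins in the cytoplasm before import. SR-related coactivators and exon junction partners had 13 rises and 9 falls among 27 (median 0.14), and 16 rises and 7 falls with library totals alone. SCAF8 was among the rises (114 ± 5.22 to 240.2 ± 2.73 CPM, log2 1.07 ± 0.03, adjusted p = 9.7e-24). Among 11 genes of splice site recognition, 6 fell and 4 rose (median −0.39), and the falls included SNRPA, a protein of U1 snRNP (97.2 ± 5.58 to 41.6 ± 1.73 CPM, log2 −1.22 ± 0.05, adjusted p = 2.3e-21).

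A list of other RNA-binding proteins joined hnRNP-type proteins under other names with splicing regulators such as MBNL1, CELF1 and QKI. Of its 49 tested genes, 29 fell, 17 rose and 3 did not pass (median −0.22). With library totals alone, 25 fell and 17 rose. At 1.5-fold or more with TMM factors, 15 of the 49 fell (30.6%) and 4 rose (8.16%). Of all genes tested, 22.7% fell and 22.8% rose by that much. The pair PTBP1 (hnRNP I) and PTBP2 moved in opposite directions. PTBP1, which binds pyrimidine tracts and represses exons, fell by 0.99 ± 0.03 (adjusted p = 1.7e-24), and PTBP2 rose (26.2 ± 1.10 to 125 ± 3.75 CPM, log2 2.26 ± 0.05, adjusted p = 3.9e-29). ILF2 was among the falls (382 ± 14.6 to 118 ± 4.58 CPM, log2 −1.70 ± 0.03, adjusted p = 6.0e-29). Among 16 genes for transport and arginine methylation of these proteins, 11 fell and 3 rose (median −0.25; 9 and 5 with library totals alone), with ALYREF, an mRNA export adaptor, falling (167 ± 5.79 to 54.1 ± 0.947 CPM, log2 −1.62 ± 0.04, adjusted p = 3.0e-27). Factors of nonsense-mediated decay, which removes transcripts with poison exons, had 11 rises and 3 falls among 16 (median 0.15). The falls were those of MAGOH (log2 −0.55 ± 0.05), RBM8A (−0.31 ± 0.04) and MAGOHB (−0.27 ± 0.08). UPF2 was the 1 factor of this list past 1.5-fold (36.2 ± 3.32 to 82.7 ± 1.30 CPM, log2 1.19 ± 0.05, adjusted p = 9.0e-20). That was 6.25% of the list, beside 45.5% of all genes tested.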

How the data were processed

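RNA was sequenced from 3 control and 3 PPM1G shRNA libraries (SMARTER mRNA kit, per the labels). The authors deposited raw counts, whole numbers by gene, which their values show to be unscaled. They also deposited FPKM, each the count over a fixed gene length and the library's total, to a relative spread of at most 4.19e-07 over 13784 genes. The genome build was GRCh38, as the submitters' processing notes state. Aligner, counter, annotation and strand setting: not given in the sources used here.

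Counts were tested with edgeR 4.0.16 in R 4.3.3. The default expression filter (minimum count 10), TMM factors and robust quasi-likelihood fits were used over all genes, with the group as the only term. SE is the absolute log2 fold change over the square root of F. Adjusted p is the Benjamini-Hochberg value over 13060 genes, with a threshold of 0.05. The biological coefficient of variation was 0.0393, and pairs of libraries within a group differed by more than sampling noise (chi-square per degree of freedom 2.69 to 6.44), so none was treated as a repeat deposit of another, which does not show separate cultures. Sums, shares and exact permutation tests used Python 3.11.15 with pandas 2.3.3. Gene spans and promoter windows came from RefSeq, GRCh38.p14. TRA2A, HNRNPA1 and SRSF2 have no window there.

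Every member is reported. Values in each library are given for the 7 largest changes past the threshold and the 2 most abundant members of each family, for genes of the pairs discussed, and for others where the groups or order are described. Up to 3 genes per related list, those with the largest changes past the threshold, were to be named. PTBP1 was added after its values were seen. The members and lists were chosen with earlier results of these data known. Alternatives were library totals alone, upper-quartile factors, 2 other filters, a replicate block, DESeq2 1.42.0, limma 3.58.1 on log2 of the deposited FPKM plus 1 or 0.1, and leaving out each library.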

Additional observations from a re-analysis of the deposited data

How the results depend on the processing

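Of 462 values of tested members under alternatives, 438 kept their direction and side of the threshold, none was lost, 13 newly passed with the same sign and 11, all of members not called, changed sign, 3 of these (HNRNPDL) also passing. Of the related genes, 18 were followed (PTBP1 was not), and all 252 of their values kept direction and call. These were up to 3 genes per list with the largest changes past the threshold. Their stability therefore does not speak for the other genes of the lists. The 14 pair ratios kept their direction in the 8 alternatives run for each, which were the libraries left out, 1 count added and FPKM ratios. SR proteins rising at least 1.5-fold numbered 2 with library totals, upper-quartile factors and both limma fits on FPKM (pseudocounts 1 and 0.1), and 1 to 2 with a library left out. SR proteins rising by any amount numbered 8 with totals, upper-quartile factors and both FPKM fits. The hnRNPs rising numbered 8 with totals and both FPKM fits, 6 with upper-quartile factors and 5 to 6 with a library left out. The hnRNPs falling numbered 11 to 12 with a library left out. The hnRNPs rising at least 1.5-fold numbered 1 with totals, upper-quartile factors, the filter of 1 CPM in 3 libraries and both FPKM fits. With a library left out, they numbered 0 to 1. The SR median was 0.33 with totals, 0.27 with upper-quartile factors, and 0.32 and 0.33 on FPKM. The hnRNP median was −0.22 with totals, −0.28 with upper-quartile factors, −0.22 with both FPKM fits, −0.0618 with no filter, where members near 0 counts enter, and −0.34 to −0.30 with a library left out. With totals, 8 SR kinase and phosphatase genes rose and 5 fell, and 5 transport and methylation genes rose and 9 fell. HNRNPA0 changed sign to 0.0369, 0.0363 and 0.0392 with totals and the FPKM fits (pseudocounts 1 and 0.1), SRSF7 to 0.0424, 0.0403 and 0.0413, and HNRNPDL to 0.0837, 0.0820 and 0.0839. HNRNPDL was 0.0231 with upper-quartile factors and ranged from −0.0471 to 0.00130 with a library left out. Library totals hold no TMM factor, and FPKM is scaled by the total; the cause of the other changes was not tested.

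Same-numbered libraries had correlations of 0.046, 0.084 and 0.036 in their deviations over 11259 genes, and the third shRNA library correlated slightly better with control library 1 (0.039), so the numbers were not treated as pairs. With the replicate block, 10805 genes were called, and there were 7 rises and 4 falls among SR proteins and 5 rises and 11 falls among hnRNPs. With 3 libraries a group and no spike-in, only relative levels were measured, and HNRNPH2 was too low to test.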

Other observations

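RPL36A, the ribosomal protein gene on the other side of the read-through gene RPL36A-HNRNPH2, had 0, 5 and 10 counts in control libraries and 1, 11 and 3 in shRNA libraries, while its paralog RPL36AL had 5478 to 6515 counts per library. Both genes under the read-through span, RPL36A and HNRNPH2, were thus near 0 in every library. How the authors' counting treated reads shared with the read-through gene was not tested.

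HNRNPD and HNRNPDL are neighbours on chromosome 4 (positions 82352498 to 82373991 and 82422564 to 82430462). HNRNPD fell (−0.44 ± 0.03, adjusted p = 8.3e-14), and HNRNPDL had −0.02 ± 0.03 (adjusted p = 0.65, edgeR's quasi-likelihood test). Their ratio fell by 0.42 on the log2 scale.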
